A study of Mus musculus with 6 samples.

Results

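AMP-activated protein kinase (AMPK) was followed here through 9 genes, taken by name from the 34656 genes that the deposited transcript values give after summing per symbol. They are the 7 genes of its alpha, beta and gamma subunits (Prkaa1, Prkaa2, Prkab1, Prkab2, Prkag1, Prkag2 and Prkag3) and its 2 best known activating kinases, Stk11, which encodes LKB1, and Camkk2. All 9 were found, and all 9 passed the filter on low values, a level of at least 1 TPM in at least 3 libraries. Poly(A) RNA was sequenced from primary myoblasts, muscle precursor cells, that came from the skeletal muscle of male mice aged 1 month and were kept for 4 days in 2% horse serum to differentiate. The SFPQ_KO group (n = 3 libraries) came from mice labelled SfpqSM-KO, which lack the RNA-binding protein Sfpq in skeletal muscle, and the Cont group (n = 3) from control mice. The promoter that drives the deletion, the alleles that the control mice carry and whether a library is 1 mouse or a pool are not stated in the labels.

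AMPK is an energy sensor built as a heterotrimer of a catalytic alpha subunit, a scaffolding beta subunit that binds glycogen, and a gamma subunit that binds AMP, ADP and ATP. When ATP runs low, LKB1 or, with calcium, CaMKK2 phosphorylates the alpha subunit in its activation loop, and the complex shifts the cell towards glucose uptake, fatty acid oxidation and autophagy. Each subunit has paralogs, and skeletal muscle is known for alpha2, beta2 and gamma3, the last of them found mainly in fast glycolytic fibres. RNA levels, which were measured here, say nothing of the phosphorylation by which the kinase is switched on.

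Sfpq itself, the check of the labels, was at 18.3, 19.3 and 14.1 TPM in SFPQ_KO and at 48.6, 60.5 and 49.9 TPM in Cont. Genes at 1 TPM or more numbered 12216 to 12484 per library. TPM does not record how many reads stand behind a value, so that depth is unknown. These cultures carried muscle transcripts: the summed TPM of 11 markers of differentiated muscle ran from 86270 to 92100 in SFPQ_KO and from 75090 to 82060 in Cont, without overlap. By sign the list was split, with 6 higher and 5 lower in SFPQ_KO. Acta1 averaged 30842 TPM in SFPQ_KO and 24426 TPM in Cont, and Mylpf averaged 24151 TPM in SFPQ_KO and 19469 TPM in Cont. Markers of fibroblasts (7 of 8 found) summed to 155 to 217 TPM in SFPQ_KO and 197 to 296 TPM in Cont, most of it Col3a1. The 3 that were tested, Col1a1, Col1a2 and Col3a1, were lower in SFPQ_KO by sign, and limma called 0. Col1a1 averaged 15.9 TPM in SFPQ_KO and 47.4 TPM in Cont, without overlap, as held for 15.3% of all tested genes in that direction. Markers of adipocytes, leukocytes and Schwann cells stayed under 2 TPM in sum in every library, with Ptprc and Adgre1 at 0 in all 6. Myoblast markers summed to 899 to 997 TPM in SFPQ_KO and 585 to 1017 TPM in Cont, with Myod1 the most abundant. By sign 3 of these 6 were lower in SFPQ_KO (Pax7, Myf5 and Vcam1) and 3 higher (Myod1, Chodl and Cdh15), and limma called 0. The highest sums of endothelial markers were 2.30 TPM in SFPQ_KO and 2.60 TPM in Cont, and those of pericyte and smooth muscle markers were 34.2 and 49.0 TPM. Most of the latter was Abcc9, lower in SFPQ_KO without overlap (limma adjusted p = 0.278), and Cspg4, higher by sign. The other 3 of these 5 markers stayed under 1 TPM in every library. In bulk RNA of this kind, fewer cells of a type and less RNA per cell cannot be told apart.

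The upstream sequences of 3 members are shown because their levels or shares set the libraries of the groups apart below: Prkaa1, whose level did not overlap between the groups, and Prkag1 and Prkag3, whose shares of the gamma class did not overlap either. Each is the 250 bases before the start site in the RefSeq promoter table (GRCm38.p6), written 5′ to 3′ on the strand of the gene. They lie at chr15:5143611-5143860 (plus strand), chr15:98831509-98831758 (minus strand) and chr1:74748956-74749205 (minus strand). The RefSeq span of Prkag3 reaches further upstream, to 74749471, so its window lies within that span. Capitals mark the E-box CANNTG, the motif bound by myogenic factors such as MyoD, and the GC box GGGCGG, bound by Sp1, on either strand.
Prkaa1: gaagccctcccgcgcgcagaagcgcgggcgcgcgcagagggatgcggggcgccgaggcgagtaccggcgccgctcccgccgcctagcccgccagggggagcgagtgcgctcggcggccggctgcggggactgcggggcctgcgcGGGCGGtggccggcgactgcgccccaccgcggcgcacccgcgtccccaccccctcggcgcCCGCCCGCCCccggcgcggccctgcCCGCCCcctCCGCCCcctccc
Prkag1: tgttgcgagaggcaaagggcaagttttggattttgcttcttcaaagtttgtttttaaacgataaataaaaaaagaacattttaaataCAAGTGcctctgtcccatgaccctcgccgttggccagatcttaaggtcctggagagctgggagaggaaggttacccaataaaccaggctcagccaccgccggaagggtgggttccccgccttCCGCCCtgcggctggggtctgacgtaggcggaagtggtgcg
Prkag3: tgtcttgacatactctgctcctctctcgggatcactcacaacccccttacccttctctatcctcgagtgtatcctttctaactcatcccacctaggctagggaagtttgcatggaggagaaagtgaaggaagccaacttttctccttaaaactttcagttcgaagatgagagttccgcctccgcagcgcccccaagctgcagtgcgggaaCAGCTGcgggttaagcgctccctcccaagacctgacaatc

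The Prkaa1 window held 5 GC boxes, some of them sharing bases, and 0 E-boxes, at a GC content of 85.2%. The Prkag1 window held 1 of each and the Prkag3 window 1 E-box, of the form CAGCTG, and 0 GC boxes. Their GC contents were 51.6% and 52.4%. Over all 32851 windows in the table the median GC content was 52.4%, 66.2% held an E-box and 32.7% a GC box. A TATA box (TATAAA, either strand), present in 12.4% of all windows, was found in 0 of the 11 windows of the 9 members. The half-site AAGGTCA of the estrogen-related receptors, present in 4.08%, was found in 1, at the middle of 3 start sites of Prkag2. These matches describe letters and not bound sites.

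The members spanned a wide range of levels, and the order was nearly the same in both groups. Per transcript length, Prkag3 was the most abundant member, at 234, 186 and 214 TPM in SFPQ_KO and 208, 163 and 166 TPM in Cont, and its mean over all libraries stood at the 94.0th percentile of tested genes. Next came Stk11 and then Prkag1. The beta genes followed, with overlapping ranges in both groups, and after them the alpha genes. Camkk2 and Prkag2 were lowest, near the 30th percentile, with overlapping ranges. Prkaa1 lay above Prkaa2 without overlap in SFPQ_KO, while in Cont their ranges overlapped.

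**Figure D1:**
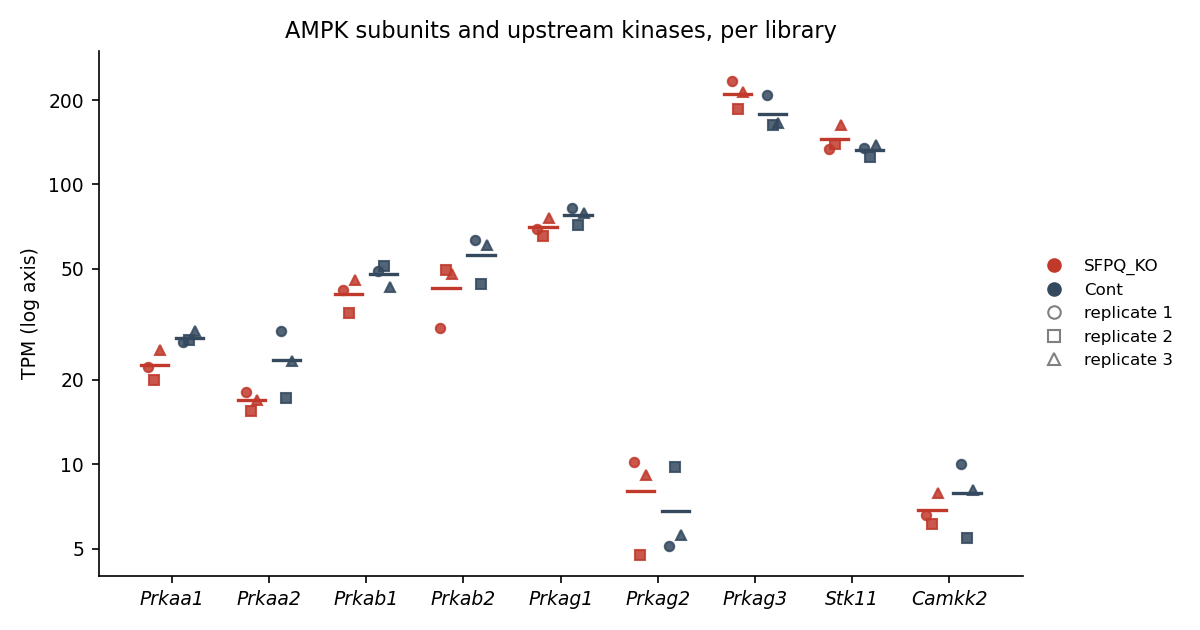
TPM of the 9 members (log axis) in each library, with SFPQ_KO in red left of Cont in dark blue. Symbols give the replicate and bars the group mean. Prkag3 and Stk11 lie above 100 TPM in all 6 libraries, and Prkaa1 is the only member whose groups do not overlap.

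No member passed the test of SFPQ_KO against Cont. Limma, fitted over 12461 genes on log2(TPM + 1) with Benjamini-Hochberg adjustment, called 0 of the 9, and 0 of all tested genes (0%). Sfpq itself was among the genes not called. Its mean in SFPQ_KO was 32.5% of that in Cont (log2 difference −1.57, limma adjusted p = 0.0531). Even a drop of that size did not pass, so the lack of calls does not show that levels were equal. At an unadjusted p under 0.05 the count was 1 lower and 0 higher member, where 9.62% of all tested genes were lower and 2.68% higher. The same unadjusted counts under limma with robust moderation were 1 and 0. After median-of-ratios scaling, 662 of all tested genes were lower and 787 higher at that p, and 0 of the members. By sign alone, 6 of 9 members were below 0, as were 64.5% of all tested genes. The median log2 difference was −0.15 over the members and −0.07 over all tested genes. Without Cont replicate 1 the count below 0 was 5, since Camkk2 then lay at 0.03.

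Catalytic alpha subunits had lower mean levels in SFPQ_KO. Prkaa1 encodes alpha1, the form found in most tissues (chromosome 15, 5143861 to 5181899 in GRCm38). It was at 22.3, 19.9 and 25.6 TPM in SFPQ_KO and at 27.4, 27.8 and 29.8 TPM in Cont. Every SFPQ_KO library was below every Cont library, as held for 15.3% of all tested genes in that direction. On the log2(TPM + 1) scale the difference was −0.32 (SE 0.11, 95% confidence interval −0.58 to −0.05), with a limma p of 0.0253 and an adjusted p of 0.343. The separation depended on scale. After median-of-ratios scaling, which moved the median difference of all genes to 0.01, the highest SFPQ_KO value of 26.7 stood above the lowest Cont value of 25.95. After that scaling 8.61% of all tested genes were separated lower and 9.93% higher, and 0 of the 9 members; quantile normalization also left 0. Without Cont replicate 2 the number of separated members was 5, and without each of the other libraries it was 2 or 3, Prkaa1 among them each time. Without Cont replicate 2 all 5 were lower in SFPQ_KO, beside 23.5% of all tested genes separated lower and 12.3% higher. The other counts take both directions together. Prkag3 was separated higher without Cont replicate 1 or SFPQ_KO replicate 2, and Stk11 higher without SFPQ_KO replicate 1. The largest lower share with a library left out came without Cont replicate 1, where 25.1% of all tested genes were separated lower and 5.67% higher.

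Prkaa2 encodes alpha2, the catalytic form that prevails in adult muscle (chromosome 4, 105029649 to 105109898). It was at 18.2, 15.6 and 17.0 TPM in SFPQ_KO and at 29.9, 17.3 and 23.4 TPM in Cont. The groups met only at Cont replicate 2, which lay inside the SFPQ_KO range. The difference of −0.42 (SE 0.19) did not pass (limma adjusted p = 0.430), and without Cont replicate 1 it was −0.24. Within Cont the coefficient of variation was 26.9%, against 7.74% in SFPQ_KO.

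The beta subunits gave the same sign with more overlap. Prkab1 encodes beta1 (chromosome 5, 116013586 to 116024503) and was at 42.0, 34.7 and 45.4 TPM in SFPQ_KO and at 49.0, 50.9 and 43.1 TPM in Cont. For beta2, the muscle form encoded by Prkab2 (chromosome 3, 97658211 to 97673812), the values were 30.8, 49.5 and 47.8 TPM in SFPQ_KO and 63.4, 44.1 and 60.7 TPM in Cont. In each group of Prkab2 a single library was low, SFPQ_KO replicate 1 and Cont replicate 2. The log2 differences were −0.23 (SE 0.12) for Prkab1 and −0.40 (SE 0.22) for Prkab2, with limma adjusted p of 0.498 and 0.499. Without SFPQ_KO replicate 2 the difference of Prkab1 was −0.12, and without SFPQ_KO replicate 1 that of Prkab2 was −0.18.

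In the gamma class the signs were mixed. Prkag1 encodes gamma1, the widely expressed form (chromosome 15, 98812797 to 98831508), and was at 69.0, 65.4 and 76.0 TPM in SFPQ_KO and 82.6, 71.5 and 78.9 TPM in Cont. Its difference was −0.15 (SE 0.10, limma adjusted p = 0.570). Gamma3, encoded by Prkag3 (chromosome 1, 74738922 to 74749471), averaged 211 ± 23.8 TPM in SFPQ_KO and 179 ± 25.3 TPM in Cont (SD, n = 3 each). The highest Cont library, replicate 1, lay above the lowest SFPQ_KO library, and the difference of 0.24 (SE 0.13) had a limma adjusted p of 0.499. The summed level of the markers of differentiated muscle was also higher in SFPQ_KO, and its part in this was not tested. Of these 11 markers 6 were higher and 5 lower in SFPQ_KO by sign, limma called 0, and Acta1 was the most abundant.

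Prkag2 encodes gamma2, known from human glycogen storage cardiomyopathy (chromosome 5, 24862735 to 25106282). At 244 kb it has the longest span of the 9 and is the only member above 100 kb. It was at 10.2, 4.74 and 9.13 TPM in SFPQ_KO and 5.09, 9.81 and 5.59 TPM in Cont, so the groups overlapped almost entirely. The difference was 0.20 with a wide interval, −0.56 to 0.96 (limma adjusted p = 0.831). The RefSeq promoter table lists 3 start sites for it, while the deposited values hold 1 transcript. That transcript begins at the most upstream of these 3, position 25100642 on the minus strand. The RefSeq span of the gene reaches further upstream, to 25106282. The transcript has 1698 coding bases, against 990 for Prkag1 and 1467 for Prkag3. Shorter forms of Prkag2 are not told apart here. In the deposited files every member has 1 transcript, so shares of splice forms within a gene could not be formed.

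Among the upstream kinases, Stk11 (chromosome 10, 80115767 to 80130679) stood at 134, 139 and 162 TPM in SFPQ_KO and 134, 125 and 138 TPM in Cont. Its difference of 0.13 (SE 0.10) did not pass (limma adjusted p = 0.623), with an interval of −0.11 to 0.36 on the deposited scale. After median-of-ratios scaling the difference of Stk11 was 0.21. Camkk2 (chromosome 5, 122718380 to 122779522) was at 6.58, 6.11 and 7.91 TPM in SFPQ_KO and 10.05, 5.47 and 8.08 TPM in Cont. The Cont libraries enclosed all 3 SFPQ_KO libraries, and the difference of −0.14 (SE 0.21) had a limma adjusted p of 0.806. Stk11 RNA exceeded that of Camkk2 by 20.4, 22.8 and 20.5 times in SFPQ_KO and by 13.4, 22.9 and 17.1 times in Cont.

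Genes on the opposite strand overlap 6 of the 9. The overlap is with a protein-coding gene for Prkab2 (Gm17651, 782 bases) and Stk11 (Cbarp, 232 bases), and with noncoding genes for Prkaa1, Prkab1, Prkag1 and Prkag2. Whether strand was used in counting is not stated in the labels, and reads of these pairs may not be separable. Prkaa2, Prkag3 and Camkk2 have no annotated overlap in GENCODE.

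**Figure D2:**
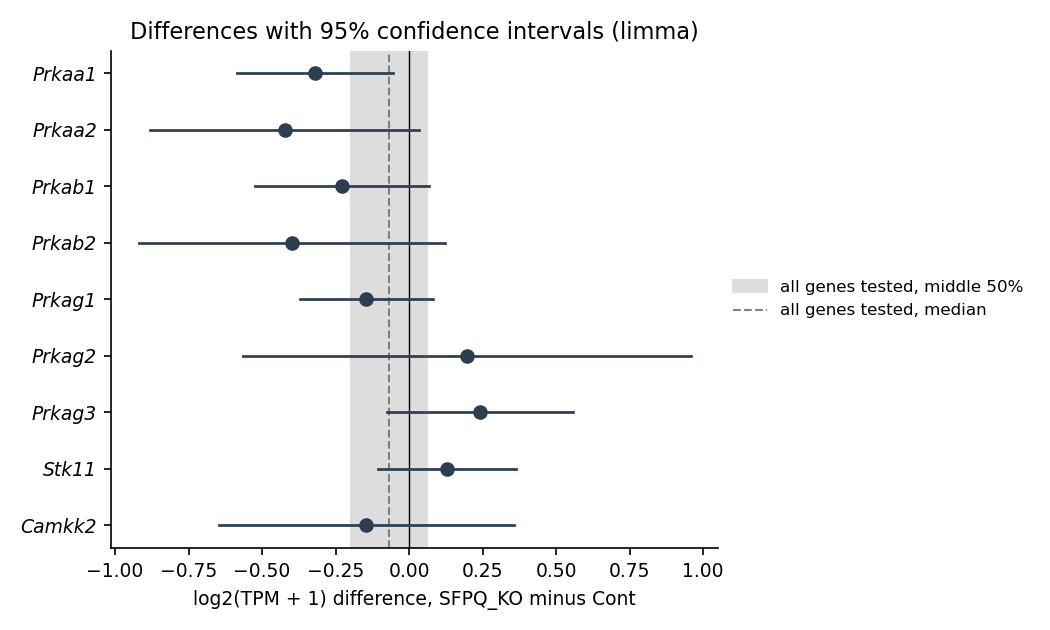
Difference of mean log2(TPM + 1), SFPQ_KO minus Cont, for each member (point) with its limma 95% confidence interval (line). The grey band holds the middle 50% of all tested genes, from −0.20 to 0.06, and the dashed line their median. The interval of Prkaa1 alone lies clear of 0, and the points of Prkag1 and Camkk2 lie inside the band.

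Shares within a class do not depend on the scaling of a library, and here the gamma class separated the groups. Prkag3 held 74.7%, 72.6% and 71.5% of gamma TPM in SFPQ_KO and 70.3%, 66.7% and 66.2% in Cont. Every SFPQ_KO library was above every Cont library, with a difference of means of 5.20 percentage points. Prkag1 gave the counterpart, at 22.1%, 25.5% and 25.5% in SFPQ_KO and 27.95%, 29.3% and 31.5% in Cont, a difference of −5.26 points. Put as a ratio, Prkag3 RNA was 3.38, 2.85 and 2.81 times that of Prkag1 in SFPQ_KO and 2.52, 2.27 and 2.10 times in Cont. For both shares an exact 2-sided permutation test gave p = 0.1, which is the lowest value possible with 3 libraries a group, and 0.25 after adjustment over the 5 shares tested, so neither passed. With each library left out in turn the difference for Prkag3 ran from 4.33 to 6.50 points. Prkag2 held 2.72 ± 0.76% in SFPQ_KO and 2.66 ± 1.21% in Cont (SD, n = 3 each, exact permutation p = 0.9).

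Alpha and beta shares overlapped. Prkaa1 held 55.1%, 56.2% and 60.1% of alpha TPM in SFPQ_KO and 47.8%, 61.7% and 56.1% in Cont (exact permutation p = 0.8). Prkab1 held 57.7%, 41.2% and 48.7% of beta TPM in SFPQ_KO and 43.6%, 53.6% and 41.5% in Cont (exact permutation p = 0.7). In both classes the paralogs were near parity, and the spread within a group was wider than the difference between groups. Both p are 0.9 after adjustment over the 5 shares.

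**Figure D3:**
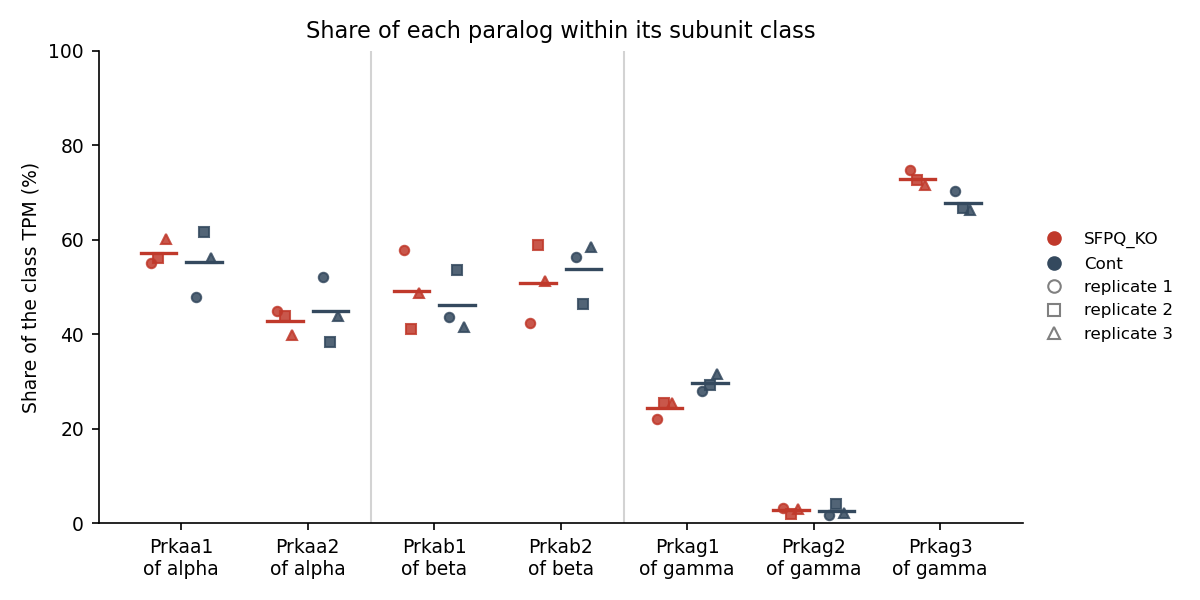
Share of each paralog in the summed TPM of its class (%), per library, with SFPQ_KO left of Cont; bars are group means. Prkag3 lies between 71.5% and 74.7% in SFPQ_KO and between 66.2% and 70.3% in Cont, while the alpha and beta shares overlap.

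Summed over paralogs, gamma RNA was in excess over alpha and beta RNA in every library. Alpha RNA summed to 40.5, 35.5 and 42.7 TPM in SFPQ_KO and 57.3, 45.0 and 53.2 TPM in Cont. For beta the sums were 72.8, 84.1 and 93.1 TPM in SFPQ_KO and 112, 95.04 and 104 TPM in Cont. On the deposited scale neither class overlapped between the groups, and the SFPQ_KO mean was 76.2% of Cont for alpha and 80.4% for beta. After median-of-ratios scaling both overlapped, at 80.5% and 84.99% of Cont. Gamma RNA summed to 313, 256 and 299 TPM in SFPQ_KO and 296, 244 and 250 TPM in Cont, which overlapped.

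The balance between classes is left as it is by scaling. Gamma RNA was 7.73, 7.22 and 7.001 times alpha RNA in SFPQ_KO and 5.16, 5.42 and 4.70 times in Cont. The lowest SFPQ_KO ratio thus lay above the highest Cont ratio, and the mean ratio in SFPQ_KO was 144% of that in Cont, or 138% to 149% with each library left out. Gamma per beta was 4.30, 3.05 and 3.21 in SFPQ_KO and 2.63, 2.57 and 2.41 in Cont, also without overlap. Beta per alpha was 1.80, 2.37 and 2.18 in SFPQ_KO and 1.96, 2.11 and 1.95 in Cont, and these overlapped. Stk11 per alpha was 3.31, 3.92 and 3.81 in SFPQ_KO and 2.34, 2.78 and 2.59 in Cont. These ratios are sums over chosen members and are given as a description, with no test. They reuse the same levels as the sums and shares above, so they are not independent of them. How often ratios of other genes separate the groups was not computed.

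**Figure D4:**
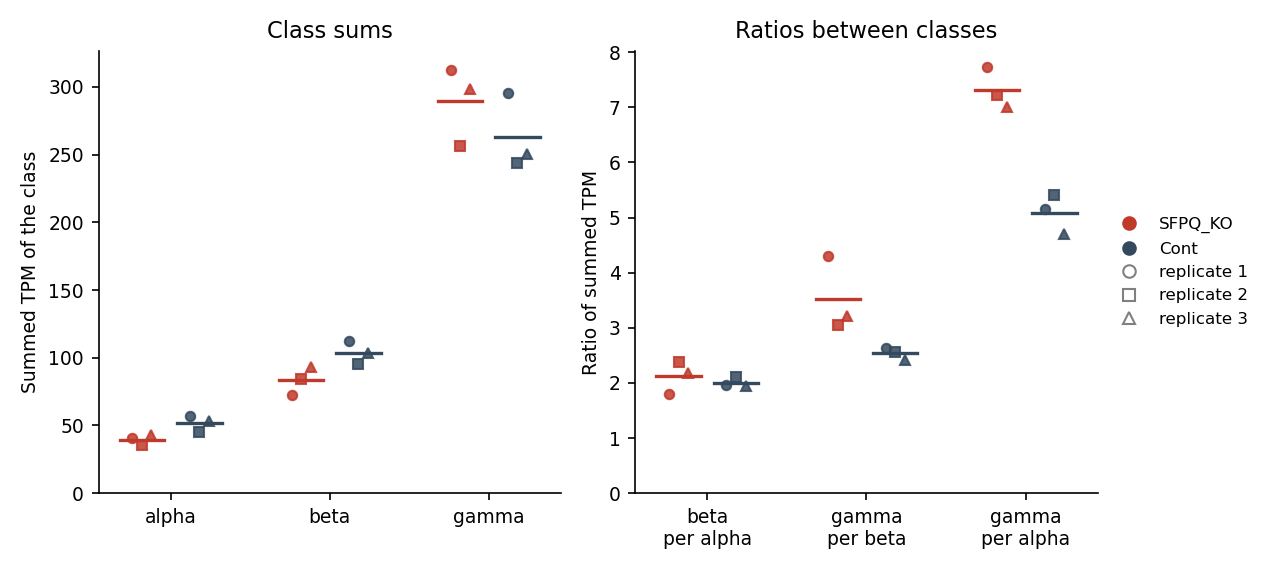
Left, summed TPM of the alpha, beta and gamma genes; right, ratios between these sums, per library, with SFPQ_KO left of Cont and bars at the group means. Gamma per alpha lies between 7.001 and 7.73 in SFPQ_KO and between 4.70 and 5.42 in Cont.

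The rest of the pathway was described through 6 lists with 99 genes, 96 of them tested. Limma called 0 of them in either direction. At an unadjusted p under 0.05, 11 were lower and 1 was higher, where 9.62% of all tested genes were lower and 2.68% higher. The groups did not overlap for 13.5% on the lower side and 3.12% on the higher side, against 15.3% and 4.27% of all tested genes. Their median difference was −0.08, against −0.07 over all tested genes. By sign 67.7% of them were below 0, as were 64.5% of all tested genes on the deposited scale and 48.5% after median-of-ratios scaling. After median-of-ratios scaling the medians of the LKB1 partners, the AMPK-related kinases and the mTORC1 genes turned to 0.04, 0.07 and 0.01, and the other 3 lists stayed below 0.

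LKB1 works in a complex with the pseudokinase STRAD and the scaffold MO25. Of 11 genes for these partners and for other upstream kinases, 7 were below 0, with a median of −0.04. The MO25 gene Cab39 was at 92.7, 87.6 and 92.2 TPM in SFPQ_KO and 95.1, 108 and 113 TPM in Cont, without overlap (difference −0.21, limma adjusted p = 0.417). The STRAD genes pointed apart: Strada averaged 37.5 ± 4.74 TPM in SFPQ_KO and 32.1 ± 0.80 TPM in Cont, and Stradb 52.7 ± 8.19 TPM in SFPQ_KO and 63.4 ± 8.36 TPM in Cont (SD, n = 3 each). Calm3, a calmodulin gene and the most abundant of the list, was at 242 ± 2.06 TPM in SFPQ_KO and 224 ± 11.8 TPM in Cont. Reads of the calmodulin genes may be shared between near-identical coding sequences.

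Among 18 modulators of AMPK, 11 were below 0 (median −0.11). Wwp1, a ubiquitin ligase, was at 12.0, 12.2 and 11.9 TPM in SFPQ_KO and 15.1, 14.6 and 15.2 TPM in Cont. These groups lay far apart relative to their spread, and the limma adjusted p of 0.279 was the lowest of the list. Fnip1, the folliculin partner that binds AMPK, averaged 10.4 ± 0.50 TPM in SFPQ_KO and 12.1 ± 0.73 TPM in Cont. Sesn2, a stress-induced sestrin, averaged 13.6 ± 2.44 TPM in SFPQ_KO and 16.9 ± 1.67 TPM in Cont. Ppp2ca, the catalytic subunit of phosphatase 2A and the most abundant of the list, averaged 288 ± 25.1 TPM in SFPQ_KO and 305 ± 29.1 TPM in Cont.

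The AMPK-related kinases, most of which LKB1 also phosphorylates, were split 6 below and 6 above 0 among 12 tested (median −0.01). Brsk1 was at 6.54, 11.01 and 6.99 TPM in SFPQ_KO and 13.2, 11.2 and 11.3 TPM in Cont. Hunk was near the detection filter, at 0.76 ± 0.48 TPM in SFPQ_KO and 1.64 ± 0.10 TPM in Cont. Snrk was at 10.5 ± 0.25 TPM in SFPQ_KO and 12.4 ± 0.21 TPM in Cont. These 3 had the smallest p of the list. Each was lower in SFPQ_KO without overlap, with limma adjusted p from 0.342 to 0.385. Of all tested genes, 15.3% were separated lower and 4.27% higher. Mark1 was the 1 gene of the list separated higher. It was at 2.85, 2.70 and 2.50 TPM in SFPQ_KO and 1.70, 2.20 and 2.48 TPM in Cont (limma adjusted p = 0.519). Sik1, the most abundant, averaged 94.2 ± 14.1 TPM in SFPQ_KO and 68.6 ± 19.6 TPM in Cont.

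Direct substrates of AMPK were below 0 in 20 of 28 (median −0.12). Ppargc1a, the coactivator PGC-1 alpha that drives mitochondrial genes, was at 5.22, 4.56 and 4.63 TPM in SFPQ_KO and 6.59, 6.27 and 7.61 TPM in Cont (difference −0.43, limma adjusted p = 0.268). The class IIa histone deacetylases, which AMPK keeps out of the nucleus, had opposite signs. Hdac4 averaged 8.98 ± 0.74 TPM in SFPQ_KO and 12.02 ± 1.67 TPM in Cont, and Hdac5 averaged 85.1 ± 5.52 TPM in SFPQ_KO and 68.5 ± 8.71 TPM in Cont. Neither overlapped between the groups and neither passed, at limma adjusted p of 0.342 and 0.362. Of the substrates 14.3% were separated lower and 3.57% higher, against 15.3% and 4.27% of all tested genes. Glycogen synthase, Gys1, the most abundant substrate, was at 532, 565 and 575 TPM in SFPQ_KO and 698, 594 and 731 TPM in Cont.

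Of the enzymes and transporters of energy balance outside the kinase, 12 of 15 were below 0, beside 64.5% of all tested genes. On the lower side 6.67% of the list was separated, beside 15.3% of all tested genes. The median of the list was −0.22. That median ran from −0.44 without Cont replicate 2 to −0.09 without SFPQ_KO replicate 2, and was also −0.09 without Cont replicate 1. Adk, adenosine kinase, which makes AMP from adenosine, was at 14.7, 21.1 and 16.7 TPM in SFPQ_KO and 26.3, 26.7 and 23.4 TPM in Cont, without overlap (difference −0.53, limma adjusted p = 0.264). The insulin-responsive glucose transporter Slc2a4 was at 70.8, 110.4 and 90.2 TPM in SFPQ_KO and 212, 104 and 169 TPM in Cont. Ckmt2, the mitochondrial creatine kinase of muscle, was at 176, 389.6 and 376 TPM in SFPQ_KO and 1072, 363 and 900.1 TPM in Cont. In both of these Cont replicate 2 lay within the SFPQ_KO range. Ckm, the cytosolic creatine kinase, averaged 4142 ± 1668 TPM in SFPQ_KO and 4728 ± 1820 TPM in Cont.

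The mTORC1 list holds subunits of that complex, which AMPK restrains, together with its regulators and targets. Of its 14 tested genes 9 were below 0 (median −0.07). Eif4ebp1, the translation repressor that mTORC1 phosphorylates, averaged 172 ± 42.3 TPM in SFPQ_KO and 236 ± 23.5 TPM in Cont (limma adjusted p = 0.363). Mlst8, a core subunit, averaged 14.7 ± 2.33 TPM in SFPQ_KO and 16.6 ± 0.54 TPM in Cont. Rraga, a Rag GTPase, was at 89.0 ± 0.99 TPM in SFPQ_KO and 93.9 ± 1.85 TPM in Cont, a small difference of −0.08 without overlap.

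**Figure D5:**
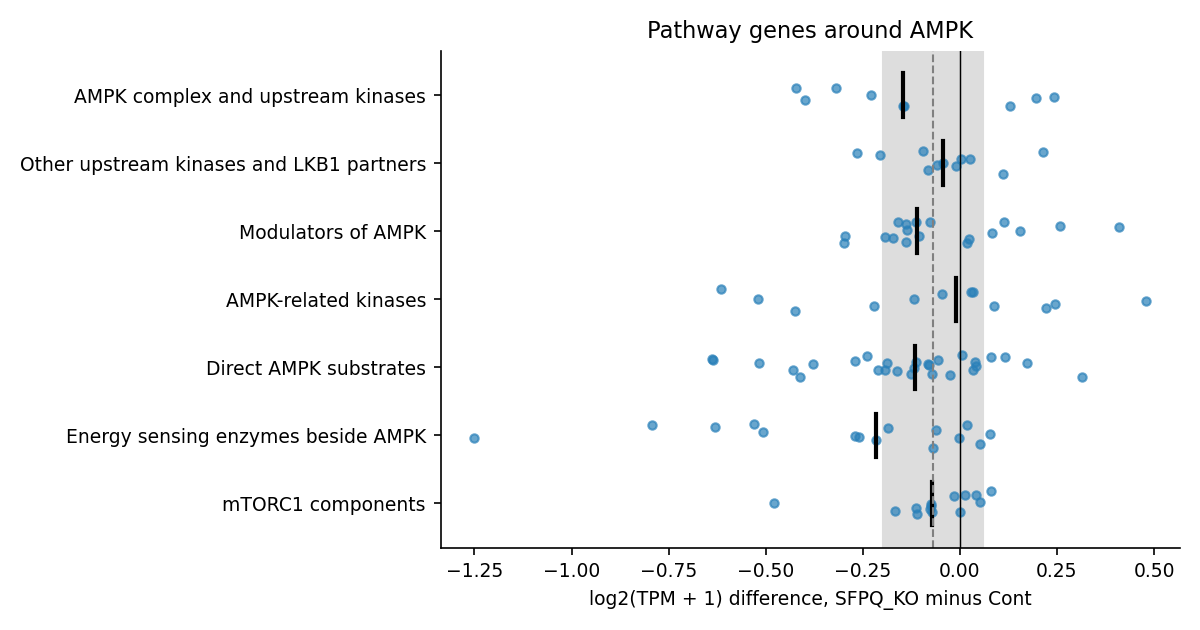
Difference of mean log2(TPM + 1), SFPQ_KO minus Cont, for every tested gene of the AMPK genes and 6 further lists (points), with the median of each list (black bar). The grey band is the middle 50% of all tested genes and the dashed line their median of −0.07. The list medians lie between −0.22 and −0.01.

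Across the 6 libraries the genes most like the leading member of each class were found by Pearson's r of log2(TPM + 1) among 12460 other tested genes. For Prkaa1 they were Fam210a (r = 0.987), an unnamed RefSeq transcript (r = 0.9855) and Lig4 (r = 0.981). For Prkab2 they were Ndufb4 (r = 0.996), Dusp7 (r = 0.989) and Acot13 (r = 0.988). For Prkag3 they were Tnfaip8 (r = 0.970), Gramd4 (r = 0.968) and Card14 (r = 0.961). Among the members themselves the highest r were those of Prkag1 with Camkk2 (0.86) and Prkaa2 (0.86) and of Prkaa2 with Camkk2 (0.84), and the lowest was that of Prkab2 with Prkag2 (−0.76). With 6 points that share the groups and the total to which TPM is scaled, these values describe likeness only.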

How the data were processed

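Per the labels' protocols, cells were expanded in F-10 with 20% fetal bovine serum, with basic FGF at 2.5 ng/mL, before differentiation, and libraries were made with an Ion Total RNA-Seq kit. The authors deposited TPM, with a value for each RefSeq accession in each library. STAR 2.4.1d and mm10 are named in the submitters' processing notes. Neither labels nor headers state the counter, the annotation release or the use of strand. TPM keeps no depth, so no count model or counting interval was used, and its number of libraries limits the precision.

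Of 34671 accessions, 30822 were named through a RefSeq gene table (GRCm38.p6, the assembly of mm10) and 103 through GENCODE M21. The other 3746, with 1.19% to 1.27% of TPM, kept their accession. Groups came from the titles. No label says that libraries of a group came from separate mice or cultures, so the p-values reflect the spread between libraries alone, and this may be technical. Testing took genes that reached 1 TPM in 3 or more libraries and used limma 3.58.1 (R 4.3.3) on log2(TPM + 1) (intensity trend, 2-sided, Benjamini-Hochberg, threshold 0.05). Fold changes on this scale understate those of low genes. Shares were compared with exact permutation tests in scipy 1.17.1 and plotted with matplotlib 3.10.9 in Python 3.11.15. Of the other lists the 3 members with the smallest p and the most abundant one are named. The members and lists were chosen with earlier results of these data known, and so were the 3 upstream windows printed. Alternatives covered the pseudocount, filter, scaling, moderation, coding accessions alone, a replicate block and each library left out.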

Additional observations from a re-analysis of the deposited data

How the results depend on the processing

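In all 16 alternatives, limma called 0 of the 9 members and 0 of the 96 tested pathway genes. Over all genes it called 2 without the intensity trend, 7 at a mean TPM of at least 5 and 13 with a pseudocount of 5, against 0 in the reported fit. With transcripts in place of genes the counts were also 2, 7 and 13, and 0 of the members. Unadjusted counts over all genes were 334 higher and 1199 lower on the deposited scale, and 787 and 662 after median-of-ratios scaling. With a replicate block they were 224 and 835 and again 0 members passed; the replicate numbers share no stated origin. The correlations of deviations between libraries of the same number were −0.26, −0.25 and 0.05, and no library correlated best with its own number. The highest correlation was 0.41, between SFPQ_KO replicate 1 and Cont replicate 2. The sign of 8 members was kept in every alternative. Camkk2 reversed without Cont replicate 1, and with each library left out its difference ran from −0.3552 to 0.0312. With each library left out, the difference in the Prkaa1 share ran from −1.74 to 5.18 points, that of Prkab1 from −1.28 to 6.99 and that of Prkag2 from −0.40 to 0.75, each reversing. Those of Prkag1 (−6.09 to −4.12) and Prkag3 (4.33 to 6.50) did not reverse. The causes were not tested. Alpha, beta and gamma sums and their ratios moved by less than the spread between replicates. Shares of transcripts within a gene could not be formed, since each member has 1 transcript in the files. TPM sets no counting error, so the precision of low members such as Camkk2 and Prkag2 rests on the spread of 3 libraries.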

Other observations

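Libraries of a group differed among themselves in several genes of energy supply that were picked after their values were seen. Pfkfb3, which makes the activator of phosphofructokinase and is an AMPK substrate, was at 12.0, 26.3 and 10.7 TPM in SFPQ_KO replicates 1 to 3 and at 27.6, 11.8 and 32.3 TPM in Cont replicates 1 to 3. Ak4, a mitochondrial adenylate kinase, was at 8.74, 22.5 and 8.09 TPM in SFPQ_KO and at 24.5, 9.93 and 26.7 TPM in Cont. SFPQ_KO replicate 2 was thus the high library of its group for both, and Cont replicate 2 the low library. Txnip, an inhibitor of glucose uptake that AMPK marks for breakdown, was at 141, 240.5 and 234 TPM in SFPQ_KO and 432, 200.2 and 346 TPM in Cont. Acacb, the acetyl-CoA carboxylase that AMPK inactivates in muscle, was at 16.3, 22.6 and 20.97 TPM in SFPQ_KO and 43.4, 20.4 and 34.4 TPM in Cont. In all 4 genes Cont replicate 2 lay within the range of the SFPQ_KO libraries, as it did for Prkaa2 and Prkab2. None of them passed in limma, with adjusted p of 0.668, 0.621, 0.474 and 0.410 in that order.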
